A study of Mus musculus with 15 samples.

Results

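The comparison set small RNAs of adult mouse testis that were pulled down with a pseudouridine antibody (Ψ-IP) against the small RNAs that stayed unbound in the same protocol (flow-through). It used 6 of the 15 libraries of the series, 3 Ψ-IP and 3 flow-through, chosen by their labels. All came from testis of C57Bl/6 male mice aged 8 weeks with no other treatment or allele named, and the RNA had been cut from a gel at 17 to 40 nt, with a different range stated in the methods. The 3 input libraries of the same set and the 6 libraries of a separate chemical assay (3 treated with CMC, a carbodiimide that marks Ψ and blocks reverse transcription, and 3 mock-treated) are given beside the results where they bear on them. The labels do not say whether the 3 libraries of a group came from different animals, so the p-values measure the spread between libraries, which may be technical.

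PIWI-interacting RNAs (piRNAs) are small RNAs of the animal germline that guide PIWI proteins to transposon and other transcripts. In adult mouse testis most of them are pachytene piRNAs, cut from long transcripts of a limited number of genomic clusters, and their 5′ ends are usually uridines. MIWI binds longer piRNAs than MILI, and both proteins hold the 3′ end after it has been trimmed. Pseudouridine (Ψ) is an isomer of uridine that is made after transcription, so every Ψ sits at a position that reads as T in the genome. The files hold reads counted per genomic interval (a locus) and not per base, so a T in the sequences here is a uridine that may or may not be Ψ.

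The Ψ-IP libraries held 11677305, 11575705 and 23935827 counts, and the flow-through libraries 21494965, 18535406 and 14305933. Of the 5630367 loci in the 9 libraries of the immunoprecipitation set, 686863 had more than 20 counts in total and were tested, and they held 89.4% of the counts of the 6 libraries. At an equal depth of 11000000 reads, 1173274 to 1280018 loci would be seen in Ψ-IP and 1083399 to 1325025 in flow-through, against 1562839 to 1614449 in input. Flow-through replicate 1 was the lowest of the 9, with a single read at 18.0% of its loci against 30.7% to 51.3% in the 8 other libraries. Across loci averaging 100 counts or more, log2 levels correlated between Ψ-IP libraries with Pearson r of 0.92 to 0.95, between flow-through libraries with r of 0.92 to 0.96, and between a Ψ-IP and a flow-through library with r of only 0.12 to 0.34. These coefficients run across loci, which are not independent replicates.

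The sequences of 9 piRNAs are shown as examples of loci that differed strongly between the fractions and of 1 that did not. They were read from the GENCODE transcripts of GRCm38 (the assembly also called mm10) and are written 5′ to 3′ on the strand of the read, with T in capitals. Apart from the last, they are 8 of the 12 loci with the largest rises and falls among those of at most 30 nt inside annotated exons outside coding and untranslated regions, and were picked after their values were seen. The first pair lies in 1 long non-coding RNA, 4930444F02Rik on chromosome 10, and the second in another, Gm30132 on chromosome 8. The last of the list is the third most abundant locus of the 6 libraries.
4930444F02Rik, higher in Ψ-IP: TacTTccacgaTTTaaaaagTaTTTTaTTT
4930444F02Rik, lower in Ψ-IP: aaacacccagcaggaaagTaTaaccaaaaa
Gm30132, higher in Ψ-IP: TTaTTTaTTaTTTacTTTTTTgagaTcTgT
Gm30132, lower in Ψ-IP: TgccaTgaTaaaacacTgaccacaagcaaT
4933440M02Rik, higher in Ψ-IP: TaTTaTTgaaTTgaTggTagaTTaTaTTgT
1700001L05Rik, higher in Ψ-IP: TaaaTaTgaaTTagaTTagaagaacagT
Gm14244, lower in Ψ-IP: TTgTaTaacaaaTaccTcaTgggagaTgcc
Gm2762, lower in Ψ-IP: TTTTaTgccTTagcaacacTcgccTcccTg
Gm21269, not called: TaTgTgaaTTTcaacTgTTggcTccacagg

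The rising locus of 4930444F02Rik (chr10:18800665-18800694, minus strand, sense to the gene, with the antisense RNA Gm32926 on the other strand) stood at 51.8, 65.5 and 48.5 CPM in the 3 Ψ-IP libraries and at 0.722, 0.490 and 2.28 CPM in the flow-through libraries. CPM are counts per 1000000 of the library size, normalized over the 9 libraries by the trimmed mean of M values (TMM). Every Ψ-IP value was far above every flow-through value, and the input libraries lay between them at 23.1 to 36.7 CPM. Its log2 fold change was 5.89 ± 0.35 (SE; edgeR adjusted p = 7.5e-61), and 46.7% of its bases were T. In an exon of the same gene, at chr10:18797698-18797727, the falling locus had 1.65, 1.56 and 2.50 CPM in Ψ-IP and 26.5, 21.9 and 17.3 CPM in flow-through. That locus had a T at 6.67% of its bases and changed by -3.23 ± 0.34 (SE; edgeR adjusted p = 1.69e-19), so loci of 1 gene moved in opposite directions.

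The 2 loci of Gm30132 repeated the contrast. The T-rich locus (chr8:93419298-93419327, minus strand, 63.3% T) had 32.6, 41.1 and 19.0 CPM in Ψ-IP against 0.289, 0.735 and 0.989 CPM in flow-through. Input stood at 44.4, 37.8 and 39.8 CPM there, and Ψ-IP did not differ from it past the threshold (log2 fold change -0.35, edgeR adjusted p = 0.218). The T-poor locus (chr8:93421549-93421578, minus strand, 16.7% T, inside an MTD element, a long terminal repeat) had 1.13, 1.01 and 1.73 CPM against 14.1, 12.1 and 11.5 CPM. Both differences exceeded the spread of the libraries, with log2 fold changes of 5.84 ± 0.37 and -2.98 ± 0.37 (SE; edgeR adjusted p = 1.92e-51 and 4.57e-14). T content did not order all of the loci shown. The rising locus of 1700001L05Rik (chr15:83354672-83354699, minus strand; log2 fold change 4.79) had 28.6% T, and the falling locus of Gm2762 (chr13:53402448-53402477, plus strand; log2 fold change -3.46) had 33.3%. The others changed by similar amounts, 4933440M02Rik (chr7:125329894-125329923, minus strand, 50% T) by 5.01 and Gm14244 (chr2:127693626-127693655, plus strand, 26.7% T) by -3.68.

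Over all loci tested, 63869 were higher in Ψ-IP than in flow-through (9.3% of 686863) and 24481 were lower (3.56%), by edgeR's quasi-likelihood test at an adjusted p below 0.01. Together 88350 loci were called (12.9%). The median log2 fold change was 3.08 at the higher and -2.08 at the lower loci, and its median size over all loci tested was 1.16. Shallow loci pass the threshold only with large folds. Of the higher loci 7628 had no count in any flow-through library, and 1528 of the lower loci none in any Ψ-IP library. With such loci set to the fold that a floor of 3 counts per library allows, the medians were 2.70 and -1.95. Among the 87231 loci that averaged 30 counts or more, where counting error is smaller, 23096 were higher (median 2.24) and 14002 lower (median -1.64). The number of lower loci depended on the libraries fitted. It was 15226 without Ψ-IP replicate 2 and 16177 without Ψ-IP replicate 1. With all 9 libraries in 1 fit, which changed the size factors and the estimate of the spread together, 63209 loci were higher and 48474 lower, and the median log2 fold change of all loci moved from -0.02 to -0.28. DESeq2 size factors on the 6 libraries alone gave 63734 and 26889. The CPM values given here use those 9-library factors, while the fold changes use the 6 libraries compared, so a fold change lies above the ratio of the printed locus CPM by about that shift. The share called rose with abundance, from 4.12% higher and 0.675% lower below an average of 10 counts to 37.0% and 23.6% above 1000 counts.

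Summing loci that share a 5′ end, and so differ only in 3′ trimming, gave 346380 piRNA starts. Of these, 37782 (10.9%) were higher and 17338 (5.01%) lower. With all 9 libraries in 1 fit 30101 starts were lower, and without Ψ-IP replicate 2 there were 10817. Loci at 1 start mostly went the same way. Among the 20700 starts with at least 2 called loci, 15093 had only higher loci, 5192 only lower loci and 415 both.

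The 12 loci with the largest changes, among those with an average of at least 100 counts and no overlap between the groups, had almost no reads in one fraction and clear levels in the other. The largest rise lay in an untranslated exon of Nemp1 (chr10:127699015-127699045, plus strand, 31 nt), which encodes a nuclear envelope protein. It had 132, 206 and 271 counts in Ψ-IP and 1, 1 and 3 in flow-through, with 51.6% T. An intronic locus of Cyp19a1, the aromatase gene, followed among the 3 largest (chr9:54241429-54241460, minus strand, 32 nt), with 39.7, 45.4 and 32.5 CPM against 0, 0.613 and 0.456 CPM. The other 4 rises were intergenic and outside repeats, the most abundant at chr7:73112474-73112504 (plus strand) with 59.4, 79.2 and 48.9 CPM in Ψ-IP and 0.529, 0.797 and 0.913 CPM in flow-through. Their log2 fold changes ran from 6.67 ± 0.36 to 7.31 ± 0.49 (SE). Set against input, these 6 loci changed by 0.37 to 1.28 in Ψ-IP and by -5.61 to -6.50 in flow-through. The comparisons with input share libraries with the main one and are given only side by side.

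The 6 largest falls had log2 fold changes from -4.77 to -5.50. The first was a locus of only 16 nt at chr15:57975974-57975989 (minus strand), with 0.173, 0.642 and 0.144 CPM in Ψ-IP and 10.1, 21.1 and 17.7 CPM in flow-through. A 21-nt locus with the same 3′ end was also among them, and another was a 24-nt locus in an ID element, a short interspersed element (SINE). The remaining 3 were of piRNA length. One of 27 nt in RMER4A, an endogenous retrovirus of the ERVK family (chr17:27323204-27323230, minus strand), had 0.0867, 0.458 and 0.576 CPM against 17.8, 13.7 and 13.7 CPM. In all 6 the flow-through libraries lay above input, with log2 fold changes of 2.50 to 6.37 against it. Ψ-IP against input ranged from -2.63 to 1.32. It passed the threshold only at the RMER4A locus (-2.63) and at a 32-nt locus, chr6:127826337-127826368 (-1.40). In input these 6 loci were low, at 0.0726 to 3.09 CPM.

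**Figure D1:**
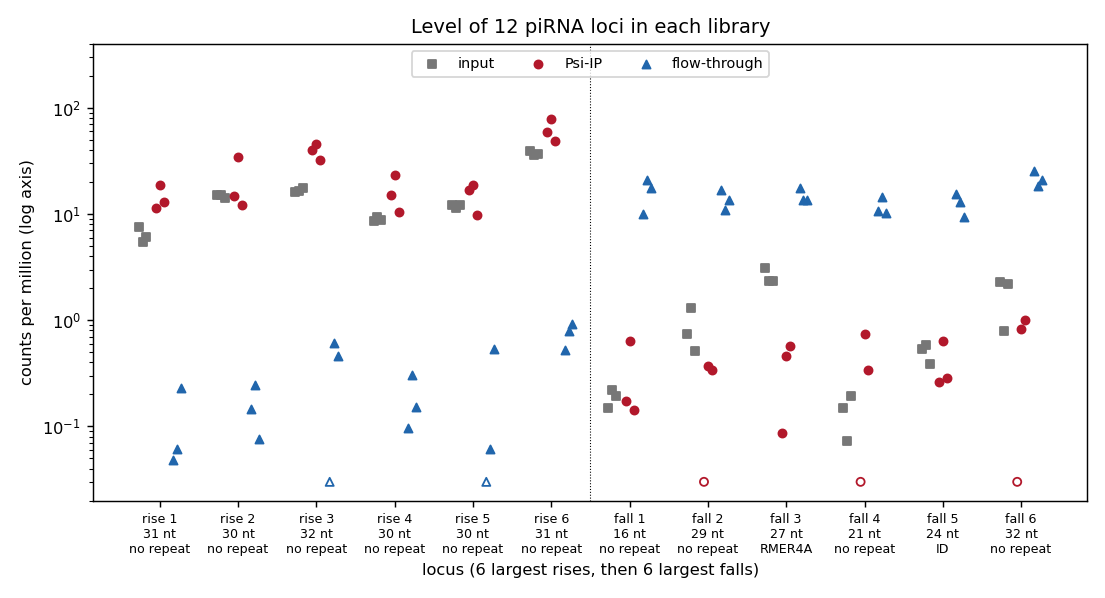
Level (CPM, log axis) of the 6 loci with the largest rises and the 6 with the largest falls in Ψ-IP against flow-through, with 1 point for each of 9 libraries and open symbols at the foot for libraries without a count. Rising loci sit near or above input in Ψ-IP and below 1 CPM in flow-through, and falling loci sit at 9.36 CPM or more in flow-through and below 1.1 CPM in Ψ-IP.

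Set against input, called loci had the following values. The loci higher in Ψ-IP than in flow-through had a median log2 fold change of 0.83 in Ψ-IP against input and -2.18 in flow-through against input. For the loci that were lower, the medians were -1.27 and 1.21. The mean level in input lay between those of the 2 fractions at 80.1% of the higher and 61.4% of the lower loci, against 36.3% of all loci tested. Loci chosen for a gap between the fractions hold input between them more often by construction, so these shares are a description. Of the higher loci 27.4% also passed the threshold upward in Ψ-IP against input and 47.5% downward in flow-through against input, where the shares over all loci were 5.45% and 9.73%. Of the lower loci 41.6% passed downward in Ψ-IP and 45.5% upward in flow-through, where the shares over all loci were 10.7% and 6.45%.

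The most abundant piRNAs changed by smaller factors. The 5 loci with the highest average, 11551 to 15175 counts, had log2 fold changes from -0.90 to 1.67. The locus at chr15:59275664-59275693 (plus strand, in an intron of Gm36617) was higher, with 915, 1106 and 1376 CPM against 306, 567 and 422 CPM (log2 fold change 1.67 ± 0.22 SE, edgeR adjusted p = 5.54e-12). Those at chr17:66213513-66213541 (plus strand) and, inside a MER20 DNA transposon, at chr7:73121028-73121056 (plus strand) were lower, with log2 fold changes of -0.90 and -0.87. The latter lost the call without Ψ-IP replicate 1 (edgeR adjusted p = 0.0101) and without flow-through replicate 2 (edgeR adjusted p = 0.0141). The locus of Gm21269 printed above (chr7:73824992-73825021, plus strand) had a log2 fold change of 0.01 ± 0.22 (SE), and 804, 625 and 815 CPM in Ψ-IP against 776, 951 and 959 CPM in flow-through.

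Uridine content differed between the fractions. It could be read only for the 102714 loci inside annotated exons (15.0% of those tested), so it describes these loci and not all piRNAs. Reads of these loci held 31.9%, 32.8% and 31.6% T in the 3 Ψ-IP libraries and 25.2%, 26.8% and 26.8% in the flow-through libraries. The groups did not overlap, and the input libraries lay between them at 30.7% to 31.1%, nearer to Ψ-IP. The difference between the means was 5.84 percentage points, and 1.71 points when each locus with a read was counted once instead of by its reads. All 3 other bases were more frequent in flow-through, A at 28.4% to 29.1% against 26.5% to 27.4% in Ψ-IP, C at 20.7% to 21.9% against 18.7% to 19.05% and G at 23.7% to 23.9% against 21.9% to 22.2%.

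By locus, the 8713 exon loci that were higher in Ψ-IP held 40.2% T on average, the 3535 that were lower held 20.7% and the 90466 not called held 29.04%. At a length of 30 nt alone the values were 40.9%, 21.5% and 30.025%. Among exon loci with at most 10% T, 0.0453% were higher and 15.3% lower. The shares crossed between 25% and 30% T, where 3.64% were higher and 2.98% lower, and reached 44.2% higher with 0 of 1926 loci lower above 50% T. The median log2 fold change climbed through the same bins from -1.41 to 3.32 (from -1.28 to 2.41 with loci without counts in a group set to their floor). Across the 10982 exon loci that averaged 30 counts or more, Spearman's rho between T content and the log2 fold change was 0.65, and for A, C and G content it was -0.17, -0.27 and -0.21. Against input, rho for T content was 0.16 in Ψ-IP and -0.56 in flow-through. These coefficients describe loci that share libraries, clusters and overlapping sequence.

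**Figure D2:**
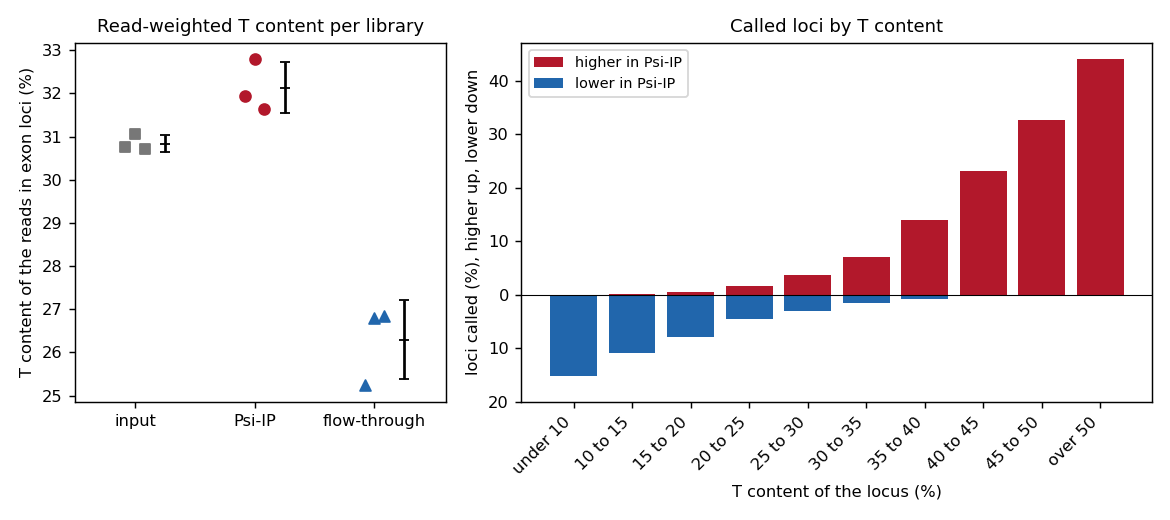
Left, T content (%) of the reads in exon loci for each library, with the mean and SD of each group of 3; right, percentage of exon loci called higher (up) or lower (down) in Ψ-IP against flow-through in bins of locus T content (%). Ψ-IP libraries sit at 31.6% to 32.8% and flow-through libraries at 25.2% to 26.8%, and the share called higher grows from 0.0453% to 44.2% across the bins.

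The excess of T was spread along the molecule. In exon loci of at least 26 nt with an average of at least 30 counts, the higher loci (2753) had more T than the lower loci (1812) at each of the first 26 positions. At position 1, the 5′ uridine typical of piRNAs, the values were 96.7% and 88.2%. Position 2 had 25.4% against 7.56%, and the widest gap of the first 26 positions lay at position 4 (41.6% against 16.3%). The gap was wider still at the 3′-terminal base, where 53.4% of the higher, 16.5% of the lower and 27.5% of the loci not called had T. Among the reads of all exon loci, 38.1%, 39.3% and 38.4% ended in T in the Ψ-IP libraries and 25.02%, 25.18% and 25.25% in the flow-through libraries, against 29.3% to 30.3% in input. A at position 10 was less frequent in Ψ-IP, at 29.015% ± 0.75 against 31.5% ± 0.51 in flow-through (SD, n = 3 each), as was A over all positions, at 26.995% ± 0.49 against 28.7% ± 0.35.

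Pairs of loci with the same 5′ end that differ by 1 nt at the 3′ end compare forms of 1 piRNA, which can differ in the terminal base, in the number of T or in both. Where the longer member gained a T (1424 pairs with an average of at least 30 counts), its log2 fold change was higher than that of the shorter one in 77.9% of pairs, by a median of 0.46. Where the added base was A, C or G, the longer member was higher in 41.2%, 35.6% and 44.2% of pairs, with median differences of -0.12, -0.26 and -0.09. Where the shorter member ended in T and the longer in another base (1040 pairs) the median difference was -0.55, in the reverse case (941 pairs) 0.56, and where neither ended in T (2529 pairs) -0.03. Where both ended in T (483 pairs), so that a T was added and the terminal base stayed the same, the median was 0.24, with the longer member higher in 66.9% of pairs. Pairs overlap in their loci and come from the same libraries, so the values are descriptive.

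The motifs searched were TNTAA and TNTAG, which match the UNUAR site of the Ψ synthase PUS7, and GTTCNANNC, which matches the T-arm site of TRUB1, on the read strand only. TNTAA was present in 20.3% of the higher, 8.37% of the lower and 12.01% of all exon loci. TNTAG stood in 15.0%, 6.31% and 11.2%. Both motifs hold at least 2 T, so their shares move with T content, and a separate part of the motif was not tested. GTTCNANNC was present in 0.287% of the higher, 0.283% of the lower and 0.334% of all exon loci.

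The CMC and mock libraries were prepared with another kit (NEBNext, against Nextflex v3) and none of them enters the Ψ-IP comparison. Of 293568 loci tested in both, those higher in Ψ-IP than in flow-through (33811) had a median log2 fold change of -0.25 with CMC against mock, those lower (14314) had 0.21, and all loci had 0.01. CMC lowered 5.47% of the loci higher in Ψ-IP and 0.0908% of those lower in Ψ-IP, against 1.09% of all loci tested in both (0.654% of the 556583 loci tested with CMC were called lower). Seen from the other list, 57.9% of the 3198 loci that CMC lowered were higher in Ψ-IP. Of the same list 0.406% were lower in Ψ-IP. Over all loci tested in both, the 33811 higher and 14314 lower of 293568 are the shares to set these against. Of the 2811 loci that CMC raised, 7.44% were higher and 6.30% lower in Ψ-IP, and CMC raised 0.618% of the loci higher in Ψ-IP, 1.24% of those lower and 0.958% of all.

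CMC values also followed T content. Their median log2 fold change fell from 0.43 in exon loci with at most 10% T to -0.76 above 50% T, and the T content of the reads was 29.007% ± 0.10 with CMC and 30.3% ± 0.16 in mock (SD, n = 3 each) over 43081 exon loci. Within a range of T content a smaller difference remained. At 25% to 35% T and an average of at least 30 counts, the median CMC value was -0.08 at the 595 loci higher in Ψ-IP, 0.02 at the 2223 not called and 0.07 at the 387 lower. Above 35% T it was -0.35 (1395 loci), -0.21 (883 loci) and -0.05 (60 loci), although mean T content still differed between these groups, from 42.4% to 37.7%.

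Long loci leaned to the flow-through. Loci of 29 to 31 nt, the size of MIWI-bound piRNAs, were higher in 11.7% and lower in 4.19% of cases, both slightly above the 9.3% and 3.56% over all loci. From 34 nt upward 3.99% were higher and 7.33% lower, and the median log2 fold change fell from -0.39 at 34 nt to -1.80 at 44 nt. Loci of 23 nt or less were called least, with 1.16% higher and 1.86% lower and a median of -0.30. Loci of different lengths also differed in abundance, with a median average count of 6.67 at 29 to 31 nt, 4.33 at 34 nt or more and 3.67 at 23 nt or less.

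Among reads, loci of 29 to 31 nt held 69.1% ± 0.68 in Ψ-IP and 65.7% ± 0.72 in flow-through (SD, n = 3 each), against 67.2% ± 0.47 in input. Those of 34 nt or more held 1.22% ± 0.024 and 2.22% ± 0.28, those of 24 to 28 nt, where MILI-bound piRNAs lie, 20.3% ± 0.73 and 22.3% ± 0.74, and those of 23 nt or less 1.33% ± 0.13 and 1.86% ± 0.12. In these 4 classes the groups did not overlap, which gives the smallest p that 3 against 3 libraries allow (exact two-sided permutation test, p = 0.1 each). The class of 32 to 33 nt held 8.04% ± 0.17 and 7.96% ± 0.44 (exact permutation p = 0.9). Counting each locus once instead of its reads gave 1.74 percentage points at 29 to 31 nt (3.38 by reads) and -3.143 at 34 nt or more (-1.001 by reads), turned the 24 to 28 nt class to 1.93 percentage points higher in Ψ-IP, and left overlap between the groups at 23 nt or less.

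**Figure D3:**
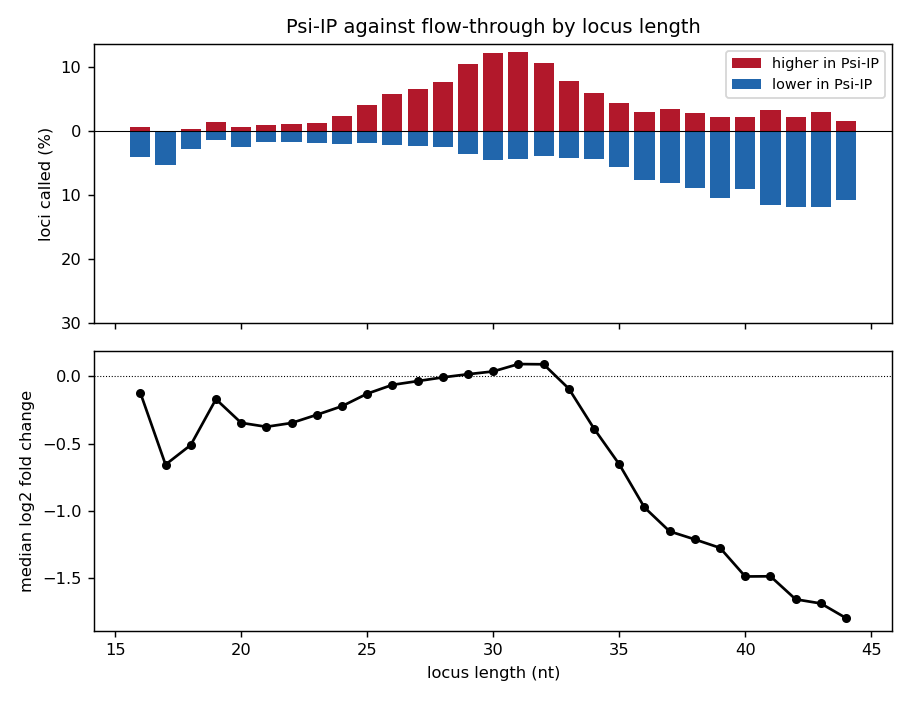
Percentage of loci called higher (up) or lower (down) in Ψ-IP against flow-through (top) and median log2 fold change (bottom) by locus length (nt), for lengths with at least 20 loci. The share called higher peaks at 12.4% at 31 nt, and the median falls to -1.80 at 44 nt.

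By repeat class, LINE loci (long interspersed elements, autonomous retrotransposons) were called higher most often among the classes with over 1000 loci. Of 24001 LINE loci, 14.6% were higher and 2.29% lower, with a median log2 fold change of 0.55. DNA transposon loci (5105) followed with 12.8% higher and 3.45% lower, then loci outside repeats (587211) with 9.21% and 3.63% and long terminal repeat (LTR) loci (53430) with 8.78% and 3.25%. SINE loci (17077) had 5.26% higher, 4.00% lower and a median of -0.28. The shares over all loci tested were 9.3% and 3.56%. These counts moved with the libraries and loci used. With all 9 libraries in 1 fit the lower loci numbered 1114 in LINE (549 in the 6-library fit), 1338 in SINE (683) and 3439 in LTR (1739), and without Ψ-IP replicate 2 they numbered 337, 439 and 1041. The higher LINE loci fell from 3509 to 2331 where an average of at least 10 counts was required, and the higher SINE loci from 899 to 578 without Ψ-IP replicate 3. Inside exons, where T content was known, the order of the classes was not the same. There 7.94% of 1272 LINE, 15.8% of 285 DNA, 8.83% of 6003 LTR, 4.87% of 3205 SINE and 8.57% of 91949 loci outside repeats were higher. Every class held more higher loci at high T content. Above 35% T the share higher was 17.5% in LINE, 30.8% in DNA (107 loci), 21.9% in LTR, 14.1% in SINE and 21.5% outside repeats, and the share lower was 0.875%, 0%, 0.221%, 2.72% and 0.405%. At 25% T or less at most 1.01% were higher in any of the 5 classes.

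As a share of all reads, LINE loci made up 4.37% ± 0.085 in Ψ-IP and 3.31% ± 0.10 in flow-through, SINE loci 2.24% ± 0.060 and 2.76% ± 0.041, and LTR loci 7.78% ± 0.062 and 7.54% ± 0.072 (SD, n = 3 each). Reads outside repeats held 84.5% ± 0.073 and 85.4% ± 0.11, and in each of these classes input lay between the fractions. The groups did not overlap in any of them (exact two-sided permutation test, p = 0.1 each, the smallest possible). With each locus counted once the differences were smaller, at 0.596 percentage points for LINE (1.06 by reads), -0.337 for SINE (-0.518 by reads) and -0.403 outside repeats (-0.918 by reads), and the groups overlapped for LTR.

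Within LINE, LTR and SINE, the largest named rise and the largest named fall were smaller than the largest outside repeats. The RMER4A fall (-4.94) still exceeded some named falls outside repeats, such as -4.78 at chr15:57975974-57975994. The largest LINE rise, in an L1MC element (chr18:67037378-67037407, minus strand), had 19.1, 45.5 and 18.4 CPM in Ψ-IP and 1.25, 0.184 and 0.609 CPM in flow-through. The largest LTR rise, in LTRIS4 of the ERV1 retroviruses (chr14:24093821-24093850, plus strand), had 17.4, 20.2 and 12.3 CPM against 0.337, 0.429 and 0.228 CPM. The log2 fold changes were 5.52 ± 0.37 and 5.85 ± 0.42 (SE), at loci picked from those without overlap between the groups. SINE loci had large changes both ways, with a B1 locus at chr7:30137589-30137617 (plus strand) higher by 5.33 ± 0.36 and 3 loci that share their 5′ end in an ID element at chr18:67042393-67042419 (minus strand) lower, with log2 fold changes of -4.57 to -4.77. The largest LINE fall, in L1MD (chr15:74643852-74643879, plus strand), was smaller, at -2.95 ± 0.35.

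Summed by family, 20 of 24 repeat families were called (83.3%), 9 higher (37.5%) and 11 lower (45.8%), mostly by small amounts. L1, the family that includes the active mouse LINE elements, stood at 32682, 34115 and 32502 CPM in Ψ-IP and at 23626, 24810 and 24250 CPM in flow-through. All Ψ-IP libraries were above input (29199 to 30255 CPM) and all flow-through libraries below it, with a log2 fold change of 0.44 ± 0.03 (SE; edgeR adjusted p = 8.33e-07). Also higher were the ERV1 retroviruses (0.28 ± 0.03), the LINE family L2 (0.11 ± 0.03), the ERVK retroviruses (0.09 ± 0.03), 4 families of DNA transposons (TcMar-Tigger at 0.41 ± 0.06, hAT-Tip100 at 0.28 ± 0.08, TcMar-Mariner at 1.06 ± 0.23 and a family written hAT# at 1.21 ± 0.20) and the LINE family RTE-BovB (0.84 ± 0.17). The last of these and TcMar-Mariner were rare, with averages of 186.5 and 106 counts. Against input, the Ψ-IP values of hAT-Tip100 and hAT# were lower (log2 fold changes of -0.59 and -0.40, the second not past the threshold). Those of the other families called higher were above input by 0.06 to 0.64.

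SINE families were lower throughout. All 6 passed the test, B4 at -0.18 ± 0.03, MIR at -0.31 ± 0.04, B2 at -0.42 ± 0.05, Alu (the B1 elements of mouse) at -0.57 ± 0.06, ID at -0.76 ± 0.08 and 5S-Deu-L2 at -2.89 ± 0.19 (log2 fold change ± SE). B1 elements derive from 7SL RNA, and B2 and ID elements from tRNA genes. The 5S-Deu-L2 family, related to 5S RNA, was low in Ψ-IP (10.4, 14.1 and 12.3 CPM) and in input (11.5 to 16.8 CPM) and high in flow-through (109, 92.1 and 70.0 CPM), from 28 loci tested. Among LTR families, ERVL (-0.30 ± 0.03), the MaLR relatives of ERVL (-0.09 ± 0.02) and unclassified LTR (-0.51 ± 0.08) were also lower, as were RTE-X (-0.34 ± 0.08) and hAT-Ac (-0.65 ± 0.17). Ψ-IP was above input for unclassified LTR (log2 fold change 0.50, edgeR adjusted p = 0.0041) and RTE-X (0.26, not past the threshold). For the other families called lower it lay at or below input, down to -0.99 for hAT-Ac. hAT-Charlie had 0.07 ± 0.03, hAT-Blackjack 0.47 ± 0.21, CR1 0.04 ± 0.07 and a family written ERVK# -0.12 ± 0.15, and these 4 did not pass. The calls of ERVK, L2, ERVL-MaLR, hAT-Ac, hAT-Tip100, RTE-X, RTE-BovB and TcMar-Mariner were lost under at least 1 alternative, and hAT-Charlie and hAT-Blackjack gained a call under others.

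**Figure D4:**
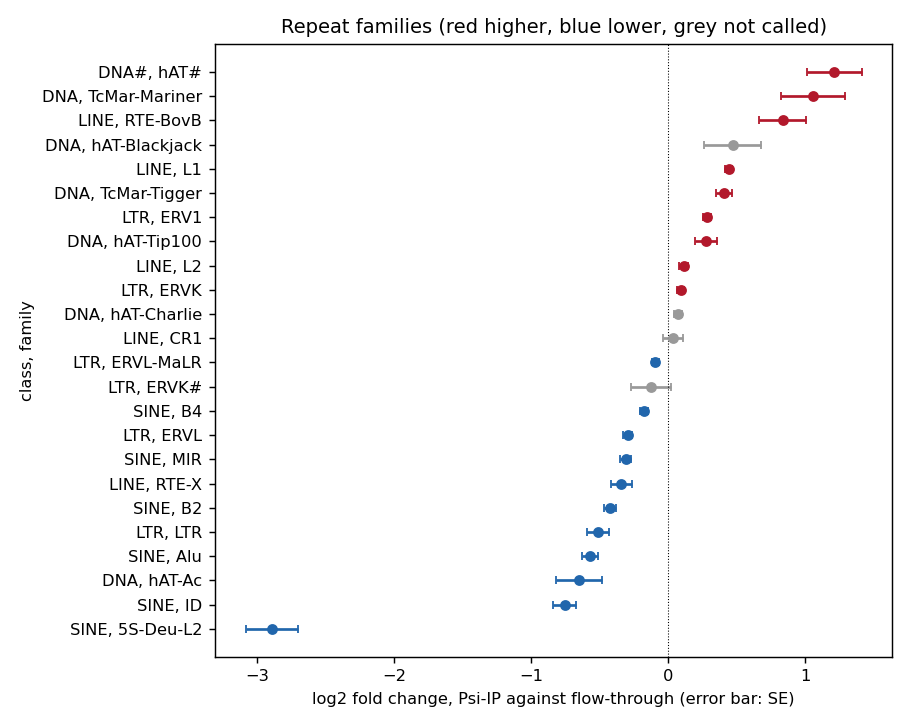
Log2 fold change of the summed counts of 24 repeat families in Ψ-IP against flow-through, with the SE as error bar; red families were called higher, blue lower and grey not called. The 6 SINE families lie to the left of zero, and L1 stands at 0.44.

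Outside the SINE families, repeat names of 1 family often moved in both directions. Of 310 names tested, 192 were called (61.9%), 96 higher (31%) and 96 lower (31%), with a median log2 fold change of 0.05. L1MC5a, an old L1 element, rose most among names with an average of at least 1000 counts, with 318, 473 and 290 CPM in Ψ-IP against 32.2, 47.3 and 49.2 CPM in flow-through (log2 fold change 3.08 ± 0.20 SE). It was followed by the internal part of the ERV1 element MER52 (2.45 ± 0.15), the DNA transposons Zaphod (1.68 ± 0.15) and URR1B (1.65 ± 0.10), L1M4a1 (1.32 ± 0.12) and the ERVK element RLTR15 (1.31 ± 0.07). L1MC5a, chosen for its rise, rested on 98 loci, of which 50 were higher and 0 lower, against 14.6% and 2.29% of all LINE loci. The largest fall at that abundance was smaller than the rises of L1MC5a and MER52. Falls came from the DNA transposons Charlie19a (-1.71 ± 0.12), MER5A (-1.14 ± 0.09) and Arthur1B (-1.08 ± 0.08), the B1 relative B1F2 (-1.17 ± 0.10), and the ERVK elements RMER4A (-1.16 ± 0.11) and RLTR13D1 (-1.11 ± 0.10). AmnSINE1, which averaged 920 counts and so lay below the limit, changed by -2.83 ± 0.17. In all 12 names averaging at least 1000 counts that are listed here, the Ψ-IP and flow-through values did not overlap. That was also so at names with small changes that were not called, such as L2c (0.11) and MTE2b (-0.09).

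Of the 5 L1 names that start with L1Md, a group made by prefix and not by age, 4 were higher and 1 lower, with a median of 0.55. L1MdV had 1995 CPM in Ψ-IP against 937 CPM in flow-through on average (log2 fold change 1.09 ± 0.10 SE), and L1MdA 16.0 against 27.1 CPM (-0.78 ± 0.18). Other L1 names were higher in 17 and lower in 4 of 30 cases (median 0.43), and Lx names in 9 and 7 of 20 (0.10). Intracisternal A particles (IAP), a family of young retroviruses, were higher in 1 and lower in 3 of 7 names, and the other ERVK names in 22 and 22 of 73. Names of hAT transposons were higher in 17 and lower in 8 of 33 (median 0.53). No name of the B1 and other Alu group (10 names, 7 lower), of B2 (3 names, 3 lower), of B4 (4 names, 2 lower), of MIR (5 names, 2 lower) or of MT (12 names, 5 lower) was higher. ERV1 (7 higher and 4 lower of 26), ERVL (6 and 9 of 26), ORR1 (3 and 5 of 18), other MaLR (2 and 9 of 18), TcMar (1 and 0 of 3) and the names of no group (7 and 5 of 17) completed the list.

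Sums over whole piRNA clusters differed by small amounts. Of 547 clusters, 107 were higher (19.6%) and 112 lower (20.5%), but 7 changed by 2-fold or more. The median size of the change was 0.25 on the log2 scale over all clusters and 0.43 over those called. Of 278 clusters with at least 20 loci tested, 161 had both higher and lower loci, where 9.3% of all loci were higher and 3.56% lower.

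The 6 most abundant clusters had log2 fold changes from -0.25 to 0.13. The cluster at chr2:92515043-92616945 had 52922, 51821 and 54020 CPM in Ψ-IP and 52794, 53525 and 53251 CPM in flow-through, while 3264 of its 36618 loci were higher and 1177 lower, shares near those over all loci. Its sum did not differ beyond the spread of the libraries (log2 fold change 0.01 ± 0.02 SE, edgeR adjusted p = 0.787). The largest, at chr17:27269742-27371971, was lower (80091 ± 1321 against 96419 ± 3810 CPM, SD, n = 3 each; log2 fold change -0.25 ± 0.03 SE), and it gives reads from both strands, with 51.3% of its input reads on the plus strand. The cluster at chr7:73759085-73850982, which holds Gm10619 and Gm21269, was lower by -0.16 ± 0.03 and the one at chr18:67026089-67102906 higher by 0.13 ± 0.02. Those at chr9:67687024-67773986 (0.07 ± 0.02) and chr6:127772025-127854021 (0.04 ± 0.02) were not called.

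The largest rise among clusters was 1.13 ± 0.09 (SE), at chr6:58097541-58105677, where Ψ-IP held 346, 377 and 353 CPM and flow-through 138, 188 and 171 CPM. The 5 next largest rises, of 0.82 to 0.98, were small clusters that overlap protein-coding genes: Dennd1b, Mrps6 with Slc5a3, Kpna4, Spag6l and Gmfb. Each held 31.9 to 42.2 CPM in Ψ-IP and 18.1 to 24.04 CPM in flow-through on average. In all 6, input lay above every flow-through value, with log2 fold changes of flow-through against input of -0.62 to -0.86. Ψ-IP against input changed by 0.40 at the largest rise and by 0.36 at Dennd1b, both past the threshold. The other rises did not pass it, with 0.24, 0.23, 0.10 and, at Gmfb, -0.05.

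The falls were larger, and several lay over non-coding or small nucleolar RNA genes. Set against input, flow-through was higher at every fall named here, with log2 fold changes of 1.05 to 2.59. Ψ-IP was lower than input at the first (-0.46, edgeR adjusted p = 0.00429). At the others Ψ-IP changed by -0.14 to 0.37 against input and did not pass the threshold. The one at chr13:23430593-23453778 (C230035I16Rik) had 30.3, 19.2 and 21.3 CPM in Ψ-IP against 185, 145 and 166 CPM in flow-through (log2 fold change -2.81 ± 0.13 SE). Of its reads, 94.4% in Ψ-IP and 97.0% in flow-through were 23 nt or shorter, below piRNA size, and too few were left at 24 to 33 nt for a test. The clusters over Eef2 with Snord37 (-2.55 ± 0.13), Snhg5 with Snord50a and Snord50b (-1.62 ± 0.11) and Atp5b with Snord59a (-1.19 ± 0.15) hold small nucleolar RNA genes, and 57.5%, 25.7% and 58.95% of their Ψ-IP reads were 34 nt or longer, against 31.4%, 37.3% and 37.2% in flow-through. Reads of 23 nt or less made up 4.79%, 10.04% and 1.91% in Ψ-IP and 22.95%, 17.6% and 24.2% in flow-through. With 24 to 33 nt loci alone the change of the Snhg5 cluster was -1.17, and the Eef2 and Atp5b clusters were too low to test. They are 3 of the 4 clusters tested that overlap an annotated small nucleolar RNA gene. The fourth had a log2 fold change of -0.06 and was not called, and over all 547 clusters 20.5% were lower. Small nucleolar RNAs guide the modification of other RNAs. Of the 103 loci inside annotated exons of such genes, 0 were higher and 12.6% lower, with a median of -1.86, against 8.49% and 3.42% of all exon loci. The cluster at chr15:57975877-57982912 (-2.12 ± 0.13) fell to -0.27 and was no longer called with 24 to 33 nt loci alone (edgeR adjusted p = 0.0282), and 68.6% of its flow-through reads were 23 nt or shorter. The cluster over Zmynd10 and Rassf1 kept its fall at those lengths, -1.20 against -1.23.

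Clusters with more T leaned to Ψ-IP. Over the 111 clusters with at least 50 exon loci, whose mean T content ran from 21.2% to 39.9%, Spearman's rho between T content and the log2 fold change of the cluster was 0.57. Against input it was 0.17 in Ψ-IP and -0.52 in flow-through.

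**Figure D5:**
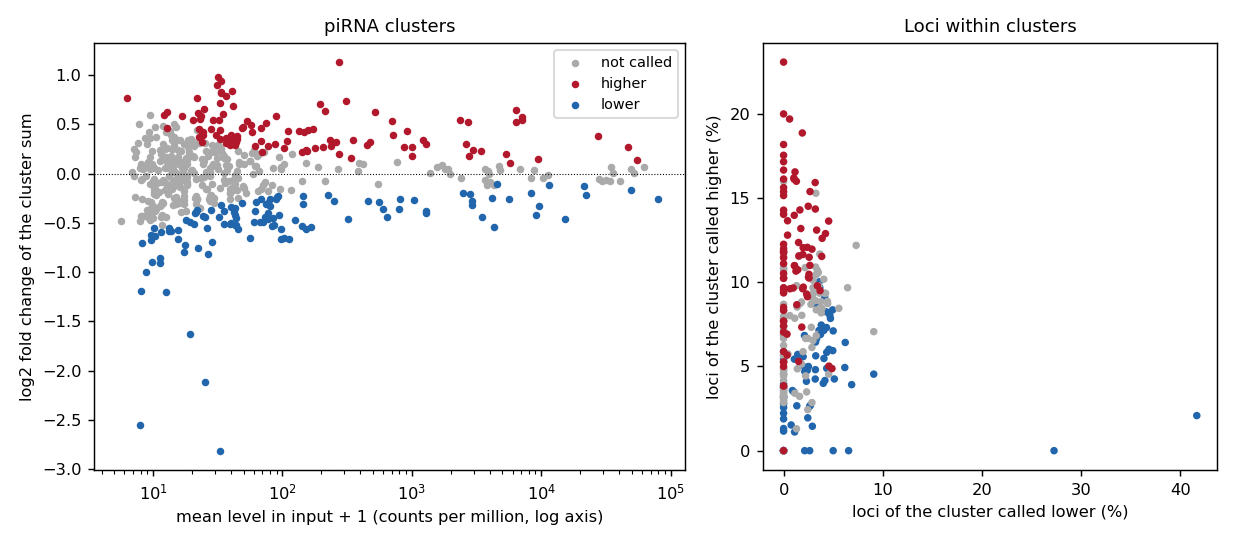
Left, log2 fold change of the cluster sum in Ψ-IP against flow-through by mean level in input (CPM plus 1, log axis) for 547 clusters; right, percentage of the loci of a cluster called higher and lower, for clusters with at least 20 loci tested, in the same colours. Most clusters lie within 1 on the log2 scale of zero, and 161 of the 278 in the right panel held loci of both directions.

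Strand made a small difference. Minus-strand loci were higher in 9.92% and plus-strand loci in 8.59% of cases, and lower in 3.58% and 3.55%. Plus-strand reads made up 45.9% ± 0.042 in Ψ-IP and 47.3% ± 0.18 in flow-through (SD, n = 3 each). The share on the minor strand of the clusters, with the main strand set by the input libraries, was 16.4% ± 0.11 in Ψ-IP, 17.4% ± 0.17 in flow-through and 16.4% ± 0.042 in input. The groups did not overlap in either measure (exact two-sided permutation test, p = 0.1 each). With each locus counted once the difference in plus-strand share was -0.829 percentage points, against -1.385 by reads.

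Loci in exons, in introns and between genes were called in like shares, 8.49%, 9.55% and 9.42% higher and 3.42%, 3.57% and 3.60% lower. Within exons, those of protein-coding genes were higher in 9.37% and lower in 2.27% of 27703 loci, and those of long intergenic non-coding RNAs in 8.25% and 4.06% of 53630. Loci inside annotated microRNA genes (1574, with a median length of 29 nt) were higher in 4.64% and lower in 6.54%.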

How the data were processed

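Small RNA reads of testis were counted per genomic interval, strand and repeat annotation. According to the study's methods, the authors kept reads of 14 to 44 nt in which 90% of bases reached quality 20, removed tRNA fragments, mapped with Bowtie 2 to mm10 with at most 3 mismatches and intersected with piRNA clusters and repeats with bedtools. The deposited values are raw counts per locus. The treatment of reads with several positions is not given in the sources used here. Files were joined on locus (unassigned columns: 0), and intervals listed more than once held 0.0915% of counts. Testing was limited to loci whose summed count exceeded 20 and used edgeR 4.0.16 (R 4.3.3; TMM, quasi-likelihood test, Benjamini-Hochberg adjusted p below 0.01), without a replicate block. Families and clusters needed an average of 100 counts. DESeq2 1.42.0 was an alternative. Scripts were tested on simulated data.

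Named loci were the 6 largest changes each way (3 each within LINE, LTR and SINE) with an average of at least 100 counts and no overlap between groups (12710 of 12983 called), and the 5 most abundant. Named repeats were the 6 largest each way at an average of at least 1000 counts, and named clusters the 6 largest each way and the 6 most abundant. The printed sequences and base composition were chosen after values were seen. Members and lists were chosen with earlier results of these data known. The floor of 3 counts covers counting error only.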

Additional observations from a re-analysis of the deposited data

How the results depend on the processing

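No locus was called one way in the reported fit and the other way under any alternative that was run. Fitting all 9 libraries together gave 48474 lower loci and 30101 lower 5′ ends, against 24481 and 17338 in the 6-library fit. The DESeq2 Wald test called 51529 loci higher and 19217 lower, and loci of 24 to 33 nt alone gave 60081 and 26787 of 652762. Leaving out 1 library at a time gave 15226 (without Ψ-IP replicate 2) to 22016 lower loci, 44791 to 56194 higher loci and 10817 to 16776 lower 5′ ends, and without Ψ-IP replicate 1 there were 16177 lower loci. Families called ranged from 13 to 19 and those higher from 5 to 9, both lowest without Ψ-IP replicate 1. Counting each locus once instead of its reads changed the difference between Ψ-IP and flow-through to 0.073 percentage points for LTR, to -0.5945 for loci of 23 nt or less, to 1.929 for 24 to 28 nt and to 1.712 for T content (an alternative chosen after seeing the data). In the same setting LINE stood at 0.596, loci outside repeats at -0.403, 29 to 31 nt at 1.74, 34 nt or more at -3.143 and the plus strand at -0.829. The causes were not tested.

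The labels do not say whether the replicate numbers pair the libraries, and the check of their deviations did not settle it. Same-numbered Ψ-IP and flow-through libraries deviated from their group means with correlations of 0.144, 0.289 and -0.083 across loci averaging 200 counts or more, with the first and second pairs correlating best with their own number and the third not. With the replicate block, 53309 loci were higher and 19866 lower, 17 families and 226 clusters were called, and the differences in shares were as without it.

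Most loci were shallow, with a median average of 5.67 counts, so small changes at single loci were not detectable at this depth. Sequence was read for exon loci only, and the counts hold no base-level signal of Ψ. Reads of near-identical repeat copies could have been assigned to more than 1 locus, and this was not tested.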
